A study of Mus musculus with 3 samples.

Results

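Nocturnin (Noct) and 9 genes of the circadian clock (Per1, Per2, Per3, Cry1, Cry2, Arntl, Clock, Dbp and Nr1d1) were examined in ST2 cells, a mouse bone marrow stromal cell line. Each of the 10 genes was found by name on 1 row of the 51826 rows of the expression table. Noct was picked on its fall with NELL2 overexpression, so its value in that comparison is a description and supports nothing. The other 9 genes were picked by their place in the clock. The 3 transfections were profiled, with 1 polyA RNA library each: control cells received empty vector and control siRNA, NELL2-overexpressing cells received a Myc-tagged NELL2 construct and control siRNA, and Fn1 knockdown cells received empty vector and Fn1 siRNA. All groups were transfected with a lipofectamine reagent, siRNA was given at 30 nM, and the study asked which signals lie downstream of NELL2 and fibronectin 1 (Fn1). ST2 is a single cell line, the share of cells that took up each agent was not given in the sources used here, and neither was the hour of harvest. In a bulk library, fewer cells expressing a gene and less RNA per cell cannot be told apart. With 1 library in each group no test between conditions was possible, so that each difference given here is one between single libraries.

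In the molecular clock, CLOCK and ARNTL (also called BMAL1) form a transcription factor pair that binds E-box sequences and switches on the Per, Cry, Nr1d1 and Dbp genes. PER and CRY proteins return to repress this pair, NR1D1 (REV-ERB alpha) represses Arntl, and DBP acts through D-box sequences, so that the transcripts cycle over the day. Noct is a rhythmic gene in many mouse tissues. Its product is related to the deadenylases that shorten mRNA tails and has been described as a phosphatase of NADP(H), and in bone marrow stromal cells it has been linked to PPARγ and to the choice between fat and bone.

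The stretch of genome just before the Noct start site is shown first. It carries the only match found when its promoter window was searched for clock-related letters, and that match is a loose one. Noct (ENSMUSG00000023087.15) lies on chromosome 3 of GRCm38, from 51224447 to 51251644 on the plus strand, with 4 annotated transcripts, and none of its exons overlaps another gene. The 100 bases before its start (RefSeq, GRCm38.p6, chr3:51224347-51224446, plus strand, no annotated exon base) are printed below with the match to a loose D-box, TTATGNAA on the opposite strand, in capitals.
Noct: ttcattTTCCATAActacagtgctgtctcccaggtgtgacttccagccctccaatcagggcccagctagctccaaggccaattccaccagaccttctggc

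For comparison, matches in the Per1, Per3 and Cry1 windows are shown, since these genes carry the letters that the clock factors are known to bind. A RefSeq window, from 250 bases before to 50 after a start, was found for 9 of the 10 genes, with 13 windows in all. The stretches printed hold the match with the bases that flank it, and the coordinates are those of the whole stretch. The stretch with the E-box CACGTG is chr11:69098772-69098799 in Per1 (plus strand) and, in Cry1 (minus strand), chr10:85185098-85185125. The stretches with the D-box are chr11:69098914-69098943 in Per1 and, in Per3 (minus strand), chr4:151044852-151044881 and chr4:151044805-151044834. The stretch with the core of the cAMP response element, TGACGTC, is chr11:69100009-69100037, before a second Per1 start. Capitals mark the match.
Per1 E-box: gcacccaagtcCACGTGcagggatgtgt
Cry1 E-box: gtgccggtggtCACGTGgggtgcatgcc
Per1 D-box: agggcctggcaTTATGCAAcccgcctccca
Per3 D-box, farther from the start: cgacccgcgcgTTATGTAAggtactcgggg
Per3 D-box, nearer to the start: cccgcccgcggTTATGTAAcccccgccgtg
Per1 cAMP element core: agctcagcggcTGACGTCggtttccctgg

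Both strands were searched. CACGTG was found in 2 members and in 7.15% of all 32851 windows, and its variant CACGTT in 3 members (Cry1, Cry2 and Nr1d1) and 4.68% of windows. TTATGNAA was found in 3 members (Noct, Per1 and Per3, with G, C and T at the open base) and 3.38% of windows. TAGGTCA, the letters bound by REV-ERB receptors, was found in Arntl and 2.61% of windows. TGACGTC was found in Per1 and 3.21% of windows. The full TGACGTCA, which contains it, was in no member window and in 1.79% of all. These matches describe the windows and do not show binding.

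The libraries went with their labels. Nell2 was at 0.640, 326 and 1.06 FPKM (fragments scaled to transcript length and to library size) in control, NELL2-overexpressing and Fn1 knockdown cells, and Fn1 was at 2802, 2489 and 137 FPKM. All 7 stromal markers, Col1a1 and Pdgfrb among them, reached 1 FPKM, with a summed level of 2531 to 2973 FPKM. The 2 adipocyte (Adipoq, Plin1) and 2 osteoblast markers (Bglap, Ibsp) stayed under 1 FPKM, as did the 3 epithelial markers, with Epcam listed at 0, while other genes of the fat and bone lineages, given with the stromal list, were above 1 FPKM. Of 4 blood and 3 endothelial markers, 1 of each reached 1 FPKM, Cd68 (1.57 to 4.08 FPKM) and Kdr (0.812 to 1.33 FPKM). The estimated depth was 23000000 to 24200000 fragments per library.

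All 10 genes were expressed. In the control library the order was Nr1d1, Noct, Clock, Arntl, Dbp, Per1, Cry2, Cry1, Per2 and Per3, from 23.0 down to 1.42 FPKM. Since FPKM is per length, these levels can be set side by side. Over the 3 libraries, the ranges of Arntl, Per1 and Cry2 overlapped one another, and that of Dbp overlapped Per1 and Cry2 but not Arntl. Noct, through its low value with NELL2 overexpression, spanned the levels of all genes from Clock to Cry1. The other neighbours in this order did not overlap, although Per2 and Per3 lay close together, and how far replicate cultures would spread is not known.

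The values are per gene name, and the genes lie apart in the genome (GRCm38, GENCODE M21). Of the activators, Clock on chromosome 5 from 76209868 to 76304792 (minus strand) and Arntl on chromosome 7 from 113207465 to 113314126 (plus strand) are on different chromosomes. The repressors were annotated as Per1 on chromosome 11 from 69095217 to 69109960 (plus strand), Per2 on chromosome 1 from 91415982 to 91459324 (minus strand), Per3 on chromosome 4 from 151003652 to 151044665 (minus strand), Cry1 on chromosome 10 from 85131700 to 85185064 (minus strand) and Cry2 on chromosome 2 from 92403646 to 92434043 (minus strand). Nr1d1 lies on chromosome 11 from 98767932 to 98775333 (minus strand) and Dbp on chromosome 7 from 45705088 to 45710203 (plus strand). None of the 10 shares exon bases with another gene on the same strand. On the opposite strand, exons of Nr1d1, Arntl, Dbp and Cry2 overlap those of Thra, Gm45355, Sphk2 and D930015M05Rik. Gm45355 was listed at 0 FPKM in all 3 libraries, and D930015M05Rik was at 0.186 FPKM in the control and lower in the others.

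**Figure D1:**
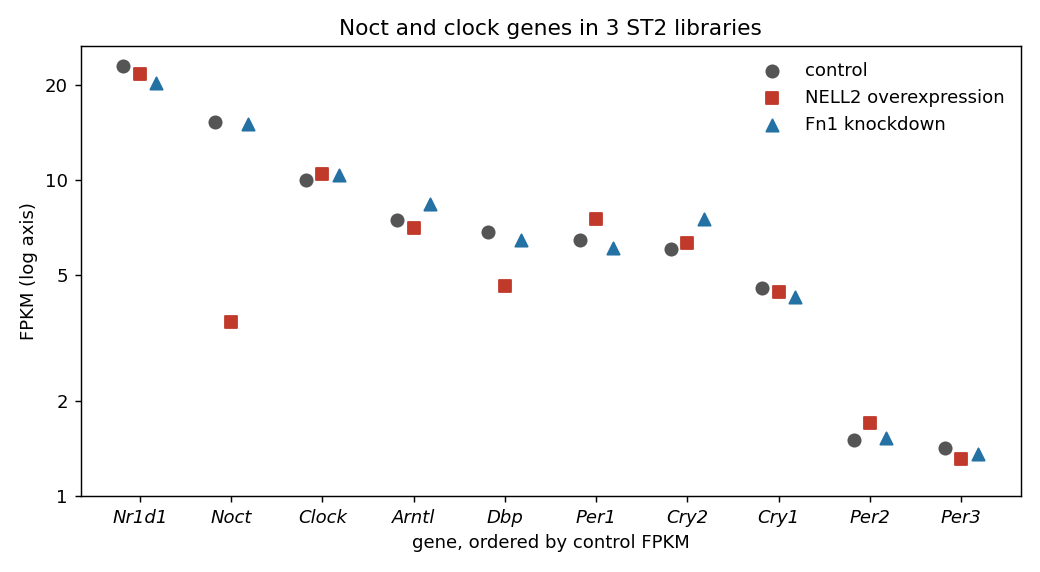
FPKM of Noct and 9 clock genes on a log axis, 1 point per library (grey circles, control; red squares, NELL2 overexpression; blue triangles, Fn1 knockdown), ordered by control level. Noct is at 15.2, 3.54 and 15.0 FPKM, whereas the 3 points of most other genes lie close together.

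Noct was the gene that stood apart. Control cells held 15.2 FPKM, NELL2-overexpressing cells 3.54 FPKM and Fn1 knockdown cells 15.0 FPKM. The NELL2 overexpression library was thus low, and the other two libraries were nearly alike. As a share of the control level these were 23.3% and 98.5%.

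The log2 ratio of FPKM + 1 for Noct was -1.84 with NELL2 overexpression. It ranked 10 from the lowest among the 12572 genes that reached 1 FPKM in control or NELL2-overexpressing cells, and 6 from the lowest among the 8548 that reached 5 FPKM in the control. After Fn1 knockdown the ratio was -0.02. Measured against the Fn1 knockdown library instead of the control, the NELL2 overexpression library held 23.6% of the Noct level, a log2 ratio of -1.82. This repeats the NELL2 overexpression value on which Noct was picked, and is no second observation of it.

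The Noct values rested on an estimated 1059 fragments in control cells, 254 in NELL2-overexpressing cells and 1098 in Fn1 knockdown cells. The exact 95% counting interval, approximate here because the fragment numbers are themselves estimates, was 20.2% to 26.7% of control for NELL2 overexpression, and for Fn1 knockdown it was 90.5% to 107%. These intervals cover counting error only, and the spread between cultures was not measured. Fragment numbers depend on the transcript length assumed: the longest Noct transcript (9797 bases against a median of 3026 for coding transcripts) would give 3430 in the control.

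The call rule asked for a log2(FPKM + 1) ratio to the control of at least 1 in either direction, and for 1 FPKM in one of the libraries compared. With NELL2 overexpression this rule called 0.652% of 12572 genes (82), of which 35, or 0.278% of all, were lower. Among the 10 genes it called Noct, which had been chosen on this contrast, and none of the other 9. After Fn1 knockdown it called 155 of 12574 genes, or 1.23%, and none of the 10. At such background shares, a count of 0 among 9 or 10 genes says little about the clock genes as a group, so their values are given one by one.

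**Figure D2:**
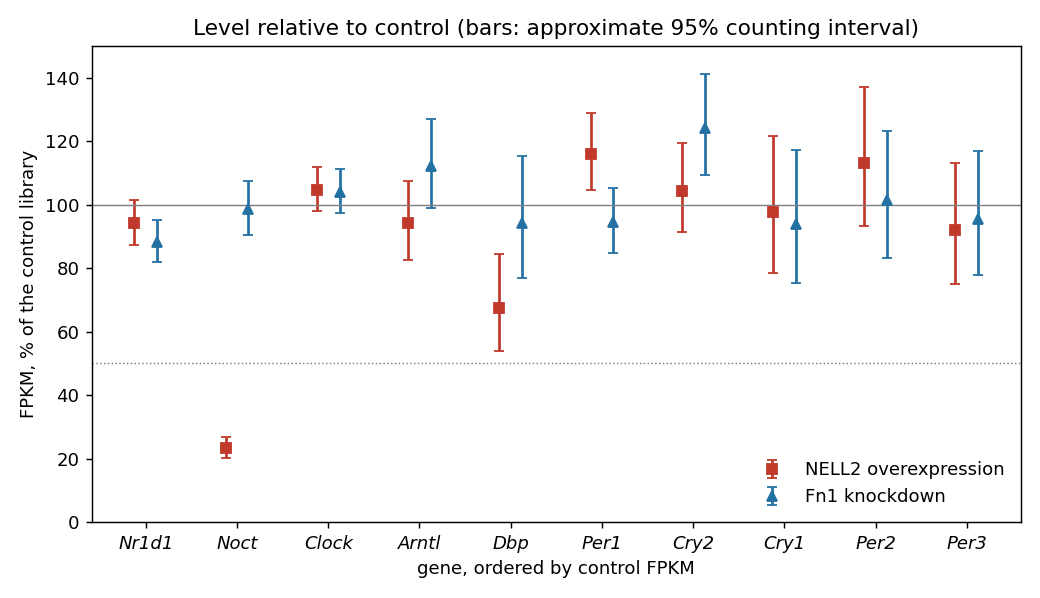
FPKM as a percent of the control library for each gene (red squares, NELL2 overexpression; blue triangles, Fn1 knockdown). Bars are approximate 95% counting intervals, the solid line is 100% and the dotted line 50%. Noct with NELL2 overexpression is at 23.3% and lies below the dotted line, and Dbp in the same library is at 67.4%.

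The activators of the clock came out near the control. Clock was at 9.99, 10.47 and 10.4 FPKM, in the order control, NELL2 overexpression, Fn1 knockdown that is kept from here on. Its highest and lowest values differed by a factor of 1.05. Arntl, its partner, was at 7.47, 7.05 and 8.38 FPKM. The Fn1 knockdown library was highest for Arntl, at 112% of control with a counting interval of 98.9% to 127%.

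The Per genes, which encode repressors of the pair, were all measured at low to moderate levels. Per1 was at 6.45, 7.49 and 6.10 FPKM, the NELL2 overexpression library being highest. This was 116% of control with a counting interval of 105% to 129%, which leaves out 100%. Among 4632 genes within 2-fold of its control level, however, 23.3% differed by as much or more in either direction. Per2 was at 1.504, 1.70 and 1.53 FPKM and Per3 at 1.42, 1.31 and 1.36 FPKM, and for both the counting intervals of either comparison held 100%.

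The cryptochromes are the second group of repressors. Cry1 was at 4.54, 4.44 and 4.27 FPKM and Cry2 at 6.06, 6.32 and 7.52 FPKM. Cry2 was highest after Fn1 knockdown, at 124% of control with a counting interval of 109% to 141%. Among genes within 2-fold of its control level, 29.3% differed from the control by as much or more in that library, in either direction. Cry1 varied by a factor of 1.06 across the 3 libraries.

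Nr1d1, the repressor of Arntl, had the highest level of the 10. It was at 23.0, 21.6 and 20.3 FPKM, with the control highest. After Fn1 knockdown it was at 88.4% of control with a counting interval of 82.0% to 95.3%, and 43.0% of genes within 2-fold of its control level differed by as much or more. Exons of Nr1d1 overlap those of Thra, a thyroid hormone receptor gene, on the opposite strand. Thra was at 16.7, 17.0 and 10.7 FPKM, which is 63.8% of control after Fn1 knockdown. Whether strand was used in counting is not stated, so reads of both genes may not have been told apart.

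Dbp, the D-box activator and a direct output of CLOCK and ARNTL, was the farthest from the control among the 9 clock genes examined beside Noct. It was at 6.83, 4.61 and 6.44 FPKM, and the NELL2 overexpression library was below both others. The level was 67.4% of control with a counting interval of 53.9% to 84.4%, and 71.5% of the Fn1 knockdown library. It rested on an estimated 197 fragments in control cells and 137 in NELL2-overexpressing cells. The log2 ratio to the control of -0.48 did not reach the rule. Of 4700 genes within 2-fold of its control level, 3.66% differed by as much or more in either direction. That share is for genes taken singly, and Dbp is named here as the farthest of 9, so the share makes its fall look rarer than it is. Dbp overlaps Sphk2, a sphingosine kinase gene, on the opposite strand, and Sphk2 was at 10.7, 10.998 and 10.1 FPKM.

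The directions of the clock genes did not form one pattern. Without Noct, 4 of 9 were higher and 5 lower with NELL2 overexpression, with a median log2 ratio of -0.03, against 6653 higher and 6080 lower and a median of 0.01 over the 12733 genes that reached 1 FPKM somewhere. After Fn1 knockdown again 4 were higher and 5 lower, with a median of -0.04 against -0.003 over all genes. The largest differences of the 9 genes from the control were -0.48 (Dbp) with NELL2 overexpression and 0.27 (Cry2) after Fn1 knockdown. The comparisons share the control library, so a high or low control value moves both ratios alike.

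**Figure D3:**
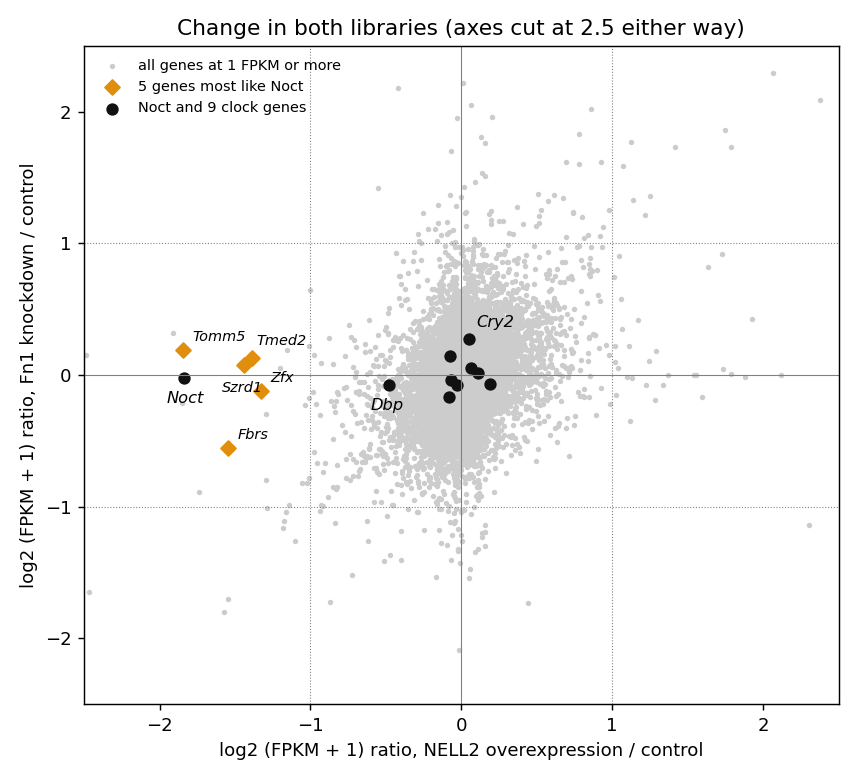
Log2(FPKM + 1) ratio to the control in the NELL2 overexpression library (x axis) against the Fn1 knockdown library (y axis), for Noct and 9 clock genes (black), the 5 genes whose pattern was most like Noct (orange diamonds) and all genes at 1 FPKM or more (grey). Dotted lines mark 2-fold on this scale. Noct lies far left at -1.84 and -0.02, and the 9 clock genes lie within the cloud; 19 of the 12733 genes fall outside the axes, which end at 2.5 either way.

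The genes whose pattern was most like that of Noct were sought next. Likeness was the distance between a gene and Noct in the plane of both log2 ratios, over 8547 genes at 5 FPKM or more in the control and 3 libraries. The 5 nearest were Tomm5, Szrd1, Tmed2, Zfx and Fbrs, at distances of 0.21 to 0.61. None of them was in the lists of clock genes used here.

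Tomm5, a small subunit of the mitochondrial import pore, was nearest to Noct, at 47.1, 12.4 and 54.0 FPKM. Tmed2, a cargo receptor of vesicles between the endoplasmic reticulum and the Golgi, was at 152, 57.5 and 166 FPKM. Zfx, a zinc finger transcription factor gene of the X chromosome, was at 8.61, 2.83 and 7.84 FPKM. In each of these the NELL2 overexpression library was the low one. Szrd1 was at 56.0, 19.9 and 59.1 FPKM, and Fbrs at 35.6, 11.5 and 24.0 FPKM, the latter with exons that overlap Gm47278 on the same strand. Exons of Szrd1 overlap 4921514A10Rik, and those of Zfx overlap Gm14798, on the opposite strand. These genes were found by their values in the same libraries, so their likeness to Noct is a description of 3 points each.

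Other parts of the clock were examined in a list of 22 genes, of which 17 reached 1 FPKM. None was called in either comparison, beside 0.652% of all genes with NELL2 overexpression and 1.23% after Fn1 knockdown. At these shares a count of 0 in this list, or in any of the short lists that follow, sets it apart from no other genes. With NELL2 overexpression 11 were higher and 6 lower, with a median log2 ratio of 0.02. After Fn1 knockdown 6 were higher and 11 lower, with a median of -0.11 beside -0.003 over all genes.

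The most abundant of these were Csnk1d, Bhlhe40, Fbxw11 and Tipin. Csnk1d, the kinase that marks PER proteins for decay, was at 49.8, 56.3 and 51.6 FPKM, and Bhlhe40, an E-box repressor, at 35.9, 39.1 and 33.2 FPKM. Fbxw11, which takes part in PER degradation, was at 35.1, 36.7 and 37.8 FPKM. Tipin, the partner of Timeless, was at 29.2, 31.7 and 25.9 FPKM. Nr1d2, the paralog of Nr1d1, was at 15.3, 15.9 and 13.2 FPKM, and was chosen for that kinship after its values were seen.

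The 4 genes of that list farthest from the control in either comparison were also picked after their values were seen. Usp2, a rhythmic deubiquitinase gene, was at 5.23, 4.07 and 2.68 FPKM, which is 51.3% of control after Fn1 knockdown and a log2 ratio of -0.76. Timeless, named for the fly clock gene, was at 4.89, 4.45 and 3.20 FPKM, 65.4% of control in Fn1 knockdown cells and a log2 ratio of -0.49. Ciart, an E-box driven repressor of CLOCK and ARNTL, was at 3.83, 2.77 and 2.55 FPKM, 72.3% and 66.6% of control. Tef, a D-box factor like Dbp, was at 10.4, 11.4 and 14.4 FPKM, 139% of control after Fn1 knockdown. The D-box genes Dbp and Tef thus had different low and high libraries. Exons of Usp2 overlap Gm49380 and Gm39325, and those of Tef overlap Gm17597, on the opposite strand.

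**Figure D4:**
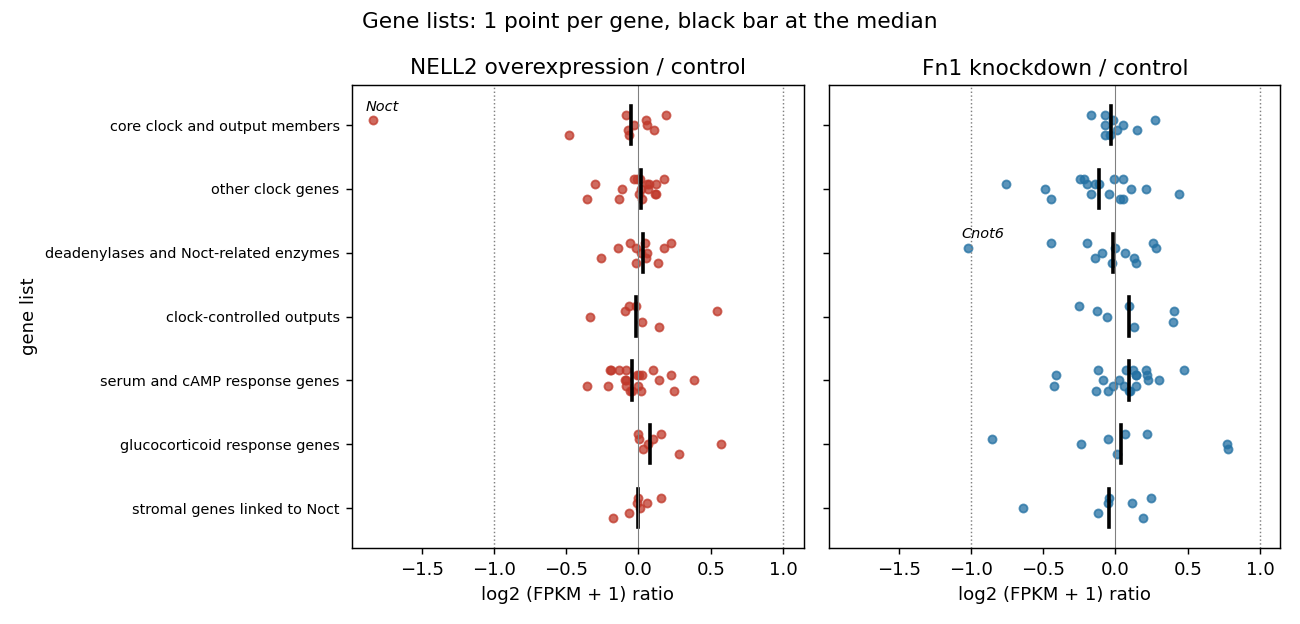
Log2(FPKM + 1) ratio to the control for genes of 7 lists at 1 FPKM or more in any library, 1 point per gene, with NELL2 overexpression on the left and Fn1 knockdown on the right. Black bars are list medians and dotted lines mark 2-fold. Noct on the left and Cnot6 on the right are the labelled genes beyond the dotted lines.

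Genes for mRNA deadenylases, to which the Noct product is related, and for NAD kinases were followed as well. They formed a list of 12, all at 1 FPKM or more in at least 1 library. With NELL2 overexpression none was called, beside 0.652% of all genes, and the log2 ratios ran from -0.26 to 0.23 around a median of 0.03, with 7 genes higher and 5 lower. After Fn1 knockdown 5 were higher and 7 lower, with a median of -0.01. Cnot6 and Cnot6l encode the CCR4 subunits of the main cytoplasmic deadenylase. Cnot6 fell after Fn1 knockdown, the only 1 of the 12 to be called there beside 1.23% of all genes, from 28.9 to 13.8 FPKM, a log2 ratio of -1.02 that only just met the rule, and was at 26.2 FPKM with NELL2 overexpression. Cnot6l was at 9.03, 10.7 and 6.36 FPKM, so that both CCR4 genes were lowest in the Fn1 knockdown library.

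The other enzymes stayed nearer to the control. Cnot8, a second catalytic subunit of the same complex, was at 24.2, 24.6 and 25.3 FPKM, and its paralog Cnot7 at 19.8, 16.4 and 17.9 FPKM. Nadk, which makes the NADP that Noct has been described to act on, was at 45.7, 43.9 and 54.9 FPKM. With NELL2 overexpression, Cnot7 had the lowest log2 ratio of the list and was at 82.7% of control. Its ratio of -0.26 was then farther from the control than those of Cnot6 (-0.14) and Cnot6l (0.23).

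Genes known to follow the clock in other tissues formed a list of 8, of which 7 reached 1 FPKM and none was called, beside the same 0.652% and 1.23% of all genes. With NELL2 overexpression 3 were higher and 4 lower (median log2 ratio -0.02), and in Fn1 knockdown cells 4 were higher and 3 lower (median 0.09). Cdkn1a, a cell cycle inhibitor, was at 372, 367 and 396 FPKM. Alas1, the first enzyme of heme synthesis, was at 71.9, 105 and 95.6 FPKM, the control being lowest. Por, the reductase that serves cytochrome P450 enzymes, was at 63.6, 50.1 and 61.1 FPKM, and Vegfa, an angiogenic factor, at 32.9, 33.5 and 43.6 FPKM.

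Genes tied to Noct in stromal cells, or to the fat and bone fates, formed another list of 8, of which 7 reached 1 FPKM. None was called, beside 0.652% and 1.23% of all genes, and 3 were higher and 4 lower in each comparison, where all genes split into 6653 and 6080 with NELL2 overexpression and 6302 and 6429 after Fn1 knockdown, with a median of -0.005 for NELL2 overexpression and of -0.05 after Fn1 knockdown. Pparg, the adipogenic nuclear receptor, was at 2.01, 1.66 and 2.44 FPKM, 82.6% and 121% of control, neither past the rule. Runx2, the osteoblast factor, was at 10.8, 11.3 and 10.4 FPKM, Cebpb at 28.5, 31.9 and 33.9 FPKM and Sp7 at 4.13, 3.91 and 3.72 FPKM. The fat lineage genes Cebpa and Fabp4 were at 1.63, 1.62 and 1.54 FPKM and at 1.30, 1.29 and 1.49 FPKM. Igf1, a growth factor gene, was at 7.78, 7.86 and 4.63 FPKM, 59.5% of control after Fn1 knockdown.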

How the data were processed

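Polyadenylated RNA of 3 ST2 libraries, 1 per transfection, was sequenced as 150 bp paired ends on an MGISEQ-2000. The authors mapped reads with HISAT2, and the submitters' processing notes name GRCm38. The deposited values were FPKM per gene name. The program that computed them, its annotation and its use of strand are not given in the sources used here.

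Ratios were computed as log2(FPKM + 1), and a gene was called at a difference of 1 or more with 1 FPKM in either library. No test was run. Depth was read from the worth of 1 fragment among genes with a single transcript of at least 600 bases; 24.7% to 25.4% of low values lay within 0.02 of a whole fragment, so whole reads were not recovered. Fragment numbers used the median length of coding transcripts (GENCODE M21), with exact 95% intervals that cover counting error only. Lists were those of 7 gene groups, and 2 older symbols were matched through RefSeq (GRCm38.p6). Named genes were the members, Nell2, Fn1, called list genes, up to 4 list genes of highest level, and the 5 genes most like Noct. Any other gene was chosen after its values were seen, including Pparg, Cebpa, Fabp4, Nr3c1, Cnot6l, Nr1d2, Usp2, Timeless, Ciart, Tef, Fos, Crem, Tsc22d3 and Fkbp5. The members and lists were chosen with earlier results of these data known. The call rule was tested on simulated data. Python 3.11.15, pandas 2.3.3, NumPy 2.4.6, SciPy 1.17.1 and matplotlib 3.10.9 were used.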

Additional observations from a re-analysis of the deposited data

How the results depend on the processing

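Each group had 1 library, so nothing below measures the spread between cultures, and Dbp, Cry1, Per2 and Per3 rest on only 137 to 235 estimated fragments per library. Of the members tested in each setting, Noct alone was called with NELL2 overexpression, and none after Fn1 knockdown. These were all 10 genes except with a filter of 5 FPKM, where Cry1, Per2 and Per3 were not tested and Noct passed, for NELL2 overexpression, through the control alone. The Noct log2 ratio with NELL2 overexpression ran from -2.07 (pseudocount 0.1) to -1.24 (pseudocount 5). The number of all genes called, given as NELL2 overexpression and Fn1 knockdown, was 178 and 358 with a pseudocount of 0.1, 26 and 50 with a pseudocount of 5, and 325 and 784 with a 1.5-fold rule. With 5 FPKM or more it was 47 for NELL2 overexpression. Chosen after seeing the data were a pseudocount and filter of 0.1 FPKM (1297 and 1594) and the Fn1 knockdown library as reference for NELL2 overexpression (162 genes). With that reference the log2 ratio changed sign for Nr1d1 (0.086), Cry2 (-0.22) and Cry1 (0.046), and another library is then compared. Of 70 alternative member ratios, 67 kept their sign and their side of 2-fold, a count that says little. A change of pseudocount cannot change a sign, and rescaling the libraries used factors of only 0.9926 to 1.0094. The 3 ratios that changed sign were all with the Fn1 knockdown reference. All 56 alternative list medians moved by less than 0.1. The same 5 genes were most like Noct with a pseudocount of 0.1, a check also chosen after seeing the data. With the longest transcript, the estimated fragments in the control left their counting interval for 6 of the 10 genes. No paired analysis was possible because no group held more than 1 library.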

Other observations

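Inputs that are known to reset the clock or to induce Noct and Per1 were followed in lists of serum and cAMP response genes and of glucocorticoid response genes. Of 21 serum and cAMP response genes, 20 reached 1 FPKM in control or NELL2-overexpressing cells and all 21 in control or Fn1 knockdown cells. None was called in either comparison, beside 0.652% and 1.23% of all genes, shares at which a count of 0 is no result about the list. With NELL2 overexpression 8 were higher and 13 lower, with a median log2 ratio of -0.04, and after Fn1 knockdown 14 were higher and 7 lower, with a median of 0.09. The most abundant were Ccn2 (listed as Ctgf), a secreted matricellular protein gene, at 527, 496 and 733 FPKM in control, NELL2-overexpressing and Fn1 knockdown cells, and Ccn1 (listed as Cyr61) at 383, 380 and 424 FPKM. Ier3 was at 54.3, 71.2 and 63.5 FPKM and Jun at 46.8, 46.6 and 46.3 FPKM. Fos, the classical serum-induced gene, was at 4.87, 4.70 and 5.30 FPKM, and Crem, a cAMP-induced repressor, at 7.36, 6.88 and 5.24 FPKM.

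Of 9 glucocorticoid response genes 8 reached 1 FPKM, and none was called, beside the same 0.652% and 1.23% of all genes. With NELL2 overexpression 7 were higher and 1 lower, with a median log2 ratio of 0.08, and in Fn1 knockdown cells 5 were higher and 3 lower, with a median of 0.04. Tsc22d3, a direct target of the glucocorticoid receptor, was at 13.1, 13.1 and 13.8 FPKM, and Fkbp5 at 6.98, 7.34 and 5.78 FPKM. Mt1, a metallothionein gene and the most abundant of the list, was at 103, 115 and 120 FPKM. Nr3c1, the glucocorticoid receptor gene, had log2 ratios of 0.28 and 0.01. Sgk1, a kinase gene, was at 47.7, 48.8 and 82.7 FPKM, and the metallothionein gene Mt2 at 60.3, 90.1 and 103 FPKM. Errfi1, a feedback inhibitor of EGF receptors, was at 63.0, 67.7 and 34.5 FPKM.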
